A study of Homo sapiens with 30 samples.

Results

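The stretch of distal 9q described here runs from 139950001 to 140215000 on chromosome 9 (hg19) and carries MAN1B1, DPP7, GRIN1 and ANAPC2. It was profiled by 4C-seq from 3 viewpoints at the NOTCH1 locus in K562 cells, an established line from a human chronic myeloid leukaemia. Its members are all restriction fragment ends that the deposited tables place between those coordinates, whatever their read count. They number 860 of 382657 ends of chromosome 9 at the promoter viewpoint, 973 of 429740 at the S2 viewpoint and 968 of 428705 at the S4 viewpoint. The genotypes were S2 mutant, S4 mutant, S5 mutant and S4-S5 mutant, each altered at the CTCF site or sites it is named for, and WT cells without those mutations. All are K562, with 2 libraries of each of the 15 combinations of viewpoint and genotype. The labels name no clone, guide or allele of a mutant, and call the libraries of a condition independent without saying whether cultures or templates differed, so p-values measure only the spread between libraries, which may be technical. The interval lies 0.507 to 0.772 Mb telomeric of the promoter viewpoint, 0.564 to 0.829 Mb from S2 and 0.426 to 0.691 Mb from S4.

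In 4C-seq, cross-linked chromatin is cut and ligated, and the fragments joined to 1 chosen fragment, the viewpoint, are amplified and sequenced, so that reads at a fragment end reflect contact with the viewpoint. CTCF is a DNA-binding protein that halts cohesin, and pairs of its sites often anchor chromatin loops and bound contact domains. NOTCH1 encodes a cell-surface receptor whose cleaved intracellular part acts in transcription. MAN1B1 encodes an endoplasmic reticulum mannosidase that trims misfolded glycoproteins, DPP7 a dipeptidyl peptidase, GRIN1 the obligatory subunit of NMDA glutamate receptors and ANAPC2 the cullin-like subunit of the anaphase-promoting complex. In the order of a RefSeq gene table, LRRC26, an auxiliary subunit of potassium channels, and TMEM210 stand between GRIN1 and ANAPC2. That table continues after ANAPC2 with SSNA1, TPRN, TMEM203, NDOR1, RNF208, CYSRT1, RNF224, SLC34A3, TUBB4B, CIMIP2A, STPG3, NELFB, TOR4A, NRARP and EXD3. It is on another build than the read tables, so which of these fall inside the interval was not determined. NRARP is known as a Notch target that feeds back on Notch signalling. 4C-seq reports contact and says nothing of the expression of these genes.

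A fragment end exists only where the first enzyme, DpnII, cuts, so the gene starts of the interval are shown for the cut sites they hold. RefSeq promoter windows of GRCh38.p14, from 250 bases before to 50 after the gene start, were given for 3 of the 4 genes that define the interval. They are chr9:137086735-137087034 on the plus strand for MAN1B1, chr9:137114684-137114983 on the minus strand for DPP7 and chr9:137188511-137188810 on the minus strand for ANAPC2. GRIN1 is named only. Capitals mark CATG, cut by NlaIII, and GTAC, cut by CviQI, the enzymes of the second digestion.
MAN1B1: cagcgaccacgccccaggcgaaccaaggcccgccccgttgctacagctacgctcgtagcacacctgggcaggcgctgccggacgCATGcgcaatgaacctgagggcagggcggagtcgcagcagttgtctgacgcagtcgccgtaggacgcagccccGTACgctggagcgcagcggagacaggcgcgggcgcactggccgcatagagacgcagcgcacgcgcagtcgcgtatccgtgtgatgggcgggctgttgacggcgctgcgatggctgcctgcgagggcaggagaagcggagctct
DPP7: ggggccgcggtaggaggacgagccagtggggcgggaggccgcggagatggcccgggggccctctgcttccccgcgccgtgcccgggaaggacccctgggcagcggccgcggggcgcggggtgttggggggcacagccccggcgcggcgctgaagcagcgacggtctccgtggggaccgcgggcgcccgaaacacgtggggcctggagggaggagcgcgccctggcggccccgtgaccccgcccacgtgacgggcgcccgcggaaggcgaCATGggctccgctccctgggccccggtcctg
ANAPC2: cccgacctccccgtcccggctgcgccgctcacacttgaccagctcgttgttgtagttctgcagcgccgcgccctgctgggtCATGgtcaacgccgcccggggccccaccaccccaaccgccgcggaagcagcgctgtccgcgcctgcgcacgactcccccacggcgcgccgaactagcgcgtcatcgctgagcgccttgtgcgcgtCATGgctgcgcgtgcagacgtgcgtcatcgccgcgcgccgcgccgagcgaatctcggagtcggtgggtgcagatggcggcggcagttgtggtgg
None of these 3 windows holds GATC, the DpnII site, which 41.7% of 35116 promoter windows of the same length hold. CATG occurs once in MAN1B1, once in DPP7 and 2 times in ANAPC2, and is held by 54.9% of all such windows. GTAC occurs once, in MAN1B1, against 29.8% of all such windows. Each site reads the same on both strands, and the marked sites do not overlap. Contacts of these starts were therefore read at ends outside the windows. GC content was 69.3% in the MAN1B1 window, 80.0% in that of DPP7 and 72.0% in that of ANAPC2.

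Shares below are percentages of the chromosome 9 reads of a library that lie more than 5 kb from its viewpoint. Those reads numbered 76932 to 3102118 in mutant libraries, against 318591 to 1518459 in WT libraries, and the interval held 1223 to 50367 of them in mutant libraries and 6971 to 36894 in WT libraries. The S2 mutant libraries of the promoter viewpoint were the shallowest. WT libraries stood apart from all mutants in a property of the whole chromosome. Reads beyond 1 Mb of the viewpoint made up 10.0 to 12.3% in mutants and 25.5 to 25.6% in WT at the promoter viewpoint. At the S2 viewpoint they made up 7.68 to 10.3% in mutants and 23.7 to 23.8% in WT, and at S4 6.49 to 7.30% in mutants and 20.2 to 20.3% in WT. What set WT apart there was not tested, and it moves with every comparison against WT below. Replicates of a group differed by more than sampling noise in all 15 groups, with a chi-square per degree of freedom of 1.32 to 21.8 over chromosome 9, so none was counted as 1 library deposited in duplicate.

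From the NOTCH1 promoter, a smaller share of reads fell in the interval in every mutant than in WT. The 2 libraries had 1.59 and 1.67% in the S2 mutant, 1.54 and 1.41% in the S4 mutant, 1.22 and 1.19% in S5 mutant cells and 1.76 and 1.82% in the S4-S5 mutant, against 2.19 and 2.22% in WT. No mutant library reached WT, and the S5 mutant was lowest. Means were 1.63 ± 0.06, 1.47 ± 0.09, 1.20 ± 0.02 and 1.79 ± 0.04% in those mutants and 2.20 ± 0.02% in WT (SD, n = 2 each). The genotypes differed beyond their replicates (exact permutation of the between-genotype F over all partings into 5 pairs, upper tail, p = 0.001058, the smallest possible, adjusted p = 0.002116 over a family of 12 values).

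From S2, the S2 mutant went the other way. Its libraries had 3.26 and 3.18% of reads in the interval, while the S4 mutant had 1.09 and 1.07%, the S5 mutant 1.29 and 1.27%, the S4-S5 mutant 1.27 and 1.26%, and WT 1.72 and 1.73%. The S2 mutant lay above WT and the other 3 mutants below it, with no overlap (exact permutation, adjusted p = 0.003175). A single fragment end, described below, held 1.87% of reads in each of its libraries. From S4, the shares were 0.850 and 0.791% in the S2 mutant, 0.923 and 0.929% in the S4 mutant, 1.45 and 1.40% in S5 mutant cells and 1.68 and 1.71% in the S4-S5 mutant, against 2.38 and 2.43% in WT. All mutants lay below WT there, the S2 and S4 mutants farthest (exact permutation, adjusted p = 0.002116). Among the 4 mutants alone, without WT, the adjusted p of the shares was 0.01143 at the promoter viewpoint.

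**Figure D1:**
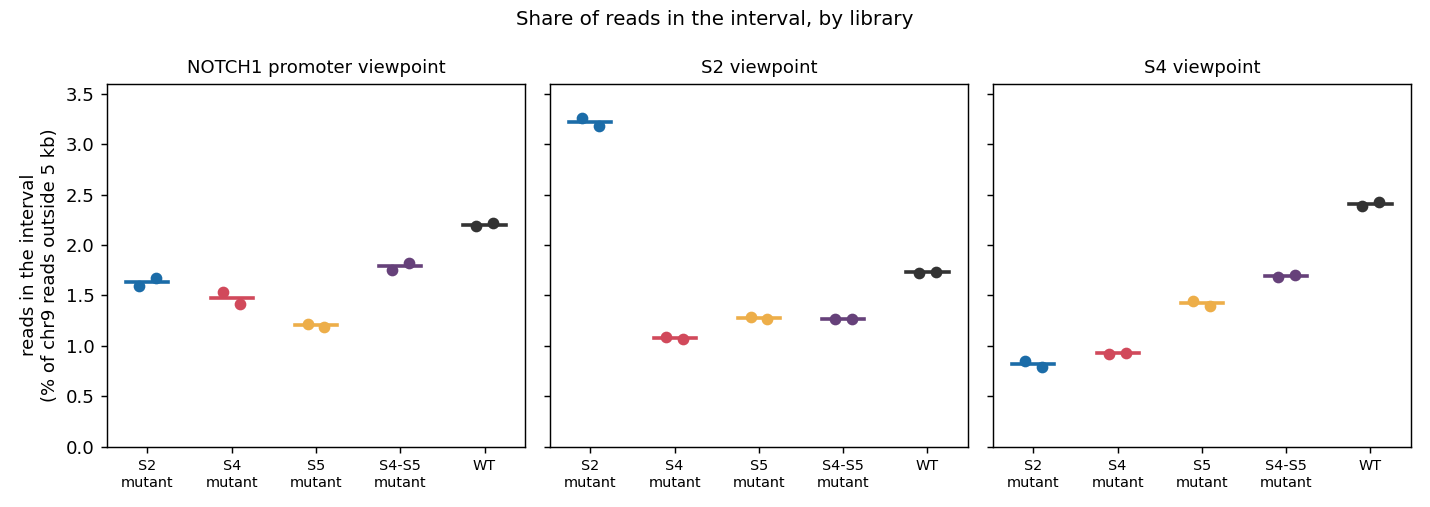
Reads in the interval as a percentage of chromosome 9 reads more than 5 kb from the viewpoint, for each library (points) and group mean (lines), in 1 panel per viewpoint. Mutant shares lie below WT in each group other than the S2 mutant at the S2 viewpoint, whose libraries reach 3.26 and 3.18%.

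The interval was also 1 window of a fit over all windows of its length along chromosome 9 (edgeR's quasi-likelihood F test, Benjamini-Hochberg adjustment over all windows, threshold 0.05). At the promoter viewpoint the log2 fold change against WT was -0.43 (95% interval -0.56 to -0.31, SE 0.06) in the S2 mutant, -0.58 (-0.67 to -0.48, SE 0.05) in the S4 mutant, -0.87 (-0.98 to -0.77, SE 0.05) in S5 mutant cells and -0.30 (-0.39 to -0.21, SE 0.04) in the S4-S5 mutant. All 4 passed the threshold, with adjusted p-values of 1.8e-11, 6.5e-31, 1.5e-53 and 4.58e-11. With non-blind ends alone, those whose fragment holds a site of the second enzyme, the S2 mutant was at -0.05 and no longer passed (adjusted p = 0.265). Passing it did not set the interval apart: 92.5, 93.9, 92.5 and 90.3% of the 279 windows passed in these comparisons. The interval held 74.1, 67.0, 54.7 and 81.3% of the WT share.

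At the S2 viewpoint the log2 fold change was 0.90 (0.84 to 0.96, SE 0.03) in the S2 mutant, where the interval held 186.4% of the WT share. It was -0.68 (-0.74 to -0.62) in the S4 mutant, -0.44 (-0.50 to -0.38) in S5 mutant cells and -0.45 (-0.51 to -0.39) in the S4-S5 mutant, with SE 0.03 each. All 4 passed, as did 93.4, 93.8, 93.4 and 94.9% of the 272 windows. At the S4 viewpoint it was -1.55 (-1.604 to -1.499) in the S2 mutant and -1.38 (-1.43 to -1.33) in the S4 mutant, against -0.76 (-0.81 to -0.71) in S5 mutant cells and -0.51 (-0.56 to -0.46) in the S4-S5 mutant, with SE 0.03 each. All 4 passed, as did 91.9, 92.6, 92.9 and 91.9% of the 283 windows. The S2 and S4 mutants thus kept 34.1 and 38.5% of the WT share at the S4 viewpoint, and the S5 and S4-S5 mutants 59.1 and 70.4%.

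The 11 negative directions hold relative to chromosome 9 reads outside the mask and turn when distant chromatin is the yardstick. The median window of the chromosome fell much further than the interval, with log2 fold changes of -4.77 to -1.82 at the promoter viewpoint, -8.04 to -7.40 at S2 and -7.91 to -6.39 at S4, fitted values that rest on windows with few or no mutant reads. Relative to that median the interval was higher by 1.52 to 4.34 at the promoter viewpoint, 6.88 to 8.30 at S2 and 4.84 to 6.54 at S4. Scaled to the reads beyond 1 Mb, all 12 comparisons were positive, the S2 mutant at S2 as before and the other 11 with a changed sign, from 0.06 in the S2 mutant at S4 (adjusted p = 0.0912) to 2.13 in the S2 mutant at S2. All but the S2 mutant at S4 passed the threshold. With TMM factors 11 of 12 were positive, the exception being the S2 mutant at the S4 viewpoint at -0.28 (adjusted p = 0.223), and with DESeq2's size factors all 12 were. Scaled to the reads within 1 Mb, all 12 kept the sign of the main comparison. Scaled to all chromosome 9 reads, those within 5 kb of the viewpoint included, all 12 also kept their sign and the falls were deeper, -4.40 to -1.24 at the promoter, -0.94 to -0.50 at S2 in the mutants other than S2, and -4.42 to -1.17 at S4, while the S2 mutant at S2 was at 0.12. Reads within 5 kb made up 88.1 to 98.6% of chromosome 9 reads in mutants and 77.3 to 77.8% in WT at the promoter, 61.3 to 76.7% in mutants and 59.8 to 60.3% in WT at S2, and 56.8 to 90.9% in mutants and 31.4 to 32.1% in WT at S4. In 11 of 12 comparisons the interval was thus lower than in WT among reads near the viewpoint, and not lower against reads from distant chromatin.

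**Figure D2:**
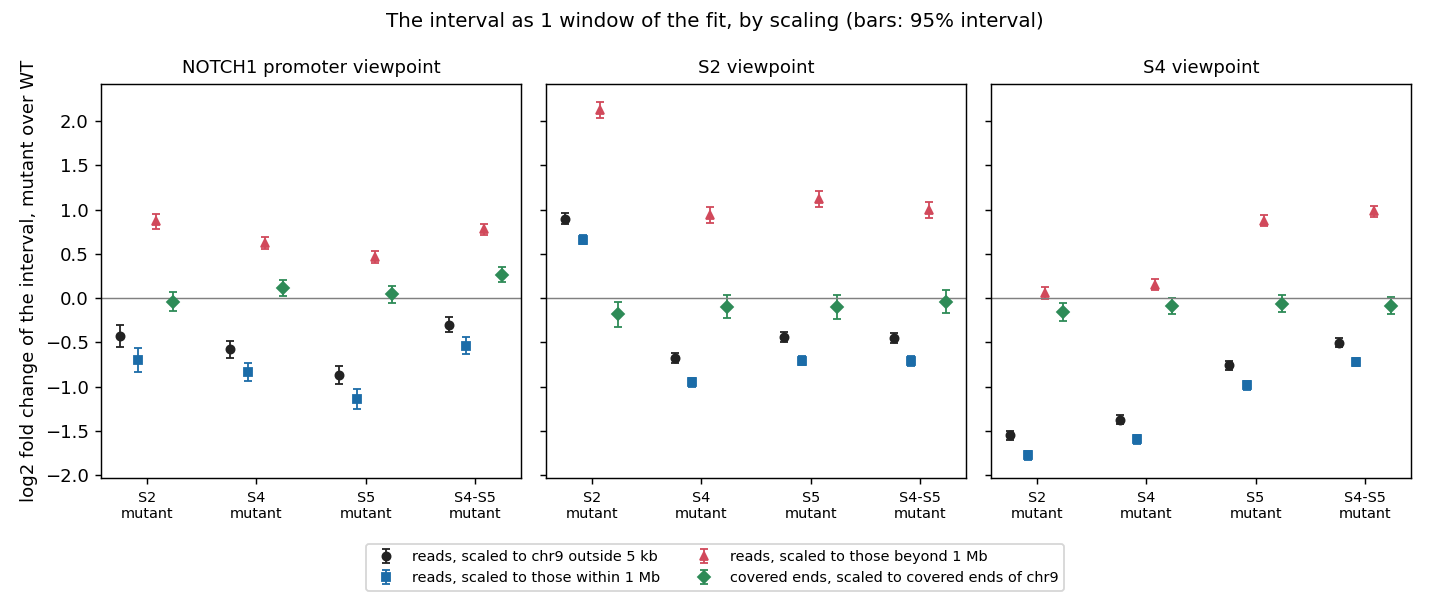
Log2 fold change of the interval, each mutant over WT, with 95% intervals from the edgeR fit, when reads are scaled to chromosome 9 outside 5 kb, to the reads within 1 Mb or to those beyond 1 Mb, and when covered fragment ends replace reads. Values below 0 under the first 2 scalings turn positive under the third, and covered ends lie near 0.

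The double mutant was compared with each single mutant in the same fit, without WT in the fold. At the promoter viewpoint the S4-S5 mutant was higher than the S4 mutant by 0.28 (0.19 to 0.37, SE 0.05) and than the S5 mutant by 0.57 (0.47 to 0.68, SE 0.05). Both passed the threshold, as did 69.5 and 69.2% of windows. At the S2 viewpoint it was higher than the S4 mutant by 0.23 (0.17 to 0.29, SE 0.03). Against the S5 mutant the difference there was -0.01 (-0.07 to 0.05, SE 0.03), with an adjusted p of 0.847. Of all windows 49.3% passed in the comparison with S4 and 48.9% in that with S5. At the S4 viewpoint the S4-S5 mutant was higher than the S4 mutant by 0.87 (0.82 to 0.92, SE 0.03) and than the S5 mutant by 0.25 (0.20 to 0.30, SE 0.03). Both passed, as did 51.2 and 55.8% of windows. These rises depended on the scaling. The rise over the S5 mutant at S4 became -0.16 under TMM scaling and -0.73 under DESeq2, and that over the S4 mutant at the promoter -0.17 under TMM scaling. At S2 the rise over the S4 mutant turned negative under both. At S4 the rise over the S4 mutant nearly vanished under DESeq2, and both rises at the promoter were smaller under it. Scaled to all chromosome 9 reads, the rises over the S4 and S5 mutants were larger, 1.41 and 2.15 at the promoter, 0.36 and 0.43 at S2, and 0.97 and 0.94 at S4.

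Covered fragment ends, those with at least 1 read, count distinct ligation products more nearly than reads do, since 4C reads carry no molecular identifier. From the promoter, 8.26 ± 0.16% of the 860 ends were covered in the S2 mutant, 14.6 ± 1.07% in the S4 mutant, 11.3 ± 0.41% in S5 mutant cells and 19.2 ± 0.90% in the S4-S5 mutant, against 21.4 ± 0.33% in WT (SD, n = 2 each). From S2 they were 9.10 ± 0.36, 12.2 ± 0.65, 10.6 ± 0.51 and 11.3 ± 1.74% in the same order of mutants and 18.6 ± 0.87% in WT. From S4 they were 10.8 ± 0.44, 13.9 (135 ends in each library), 12.7 ± 0.37 and 12.2 ± 0.51% in the mutants and 21.4 ± 0.15% in WT. Every mutant library covered fewer ends than every WT library of its viewpoint, although the S4, S5 and S4-S5 mutants had a higher mean depth than WT at S2 and S4. The genotypes differed at all 3 viewpoints (exact permutation, adjusted p = 0.002116 from the promoter, 0.01905 from S2 and 0.003175 from S4). Among the mutants alone the difference at S2 did not pass (exact permutation, adjusted p = 0.1714).

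Thinned to the depth of the shallowest library of its viewpoint, mutant coverage was 7.50 to 15.1% at the promoter against 17.3% in WT, 7.02 to 8.78% at S2 against 18.1% in WT, and 8.08 to 10.7% at S4 against 19.2% in WT, as group means. Fewer covered ends were not particular to the interval. Over all of chromosome 9, 0.502 to 0.985% of ends were covered in mutant libraries at the promoter and 1.25 to 1.31% in WT, and the same order held at S2 and S4. Fitted across windows with covered ends in place of reads, the log2 fold change of the interval ran from -0.18 to 0.26 over the 12 comparisons with WT, none past the threshold in edgeR (adjusted p = 0.106 to 0.975, 1 of 12 with an unadjusted p under 0.05). Few windows passed anywhere in that fit, at the promoter 2.68% in the S2 and S5 mutants, 11.2% in the S4 mutant and 8.04% in S4-S5 mutant cells, with 1.08 to 1.62% at S2 and 1.09% at S4. Relative to the other covered ends of its library, the interval was thus not shown to change.

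**Figure D3:**
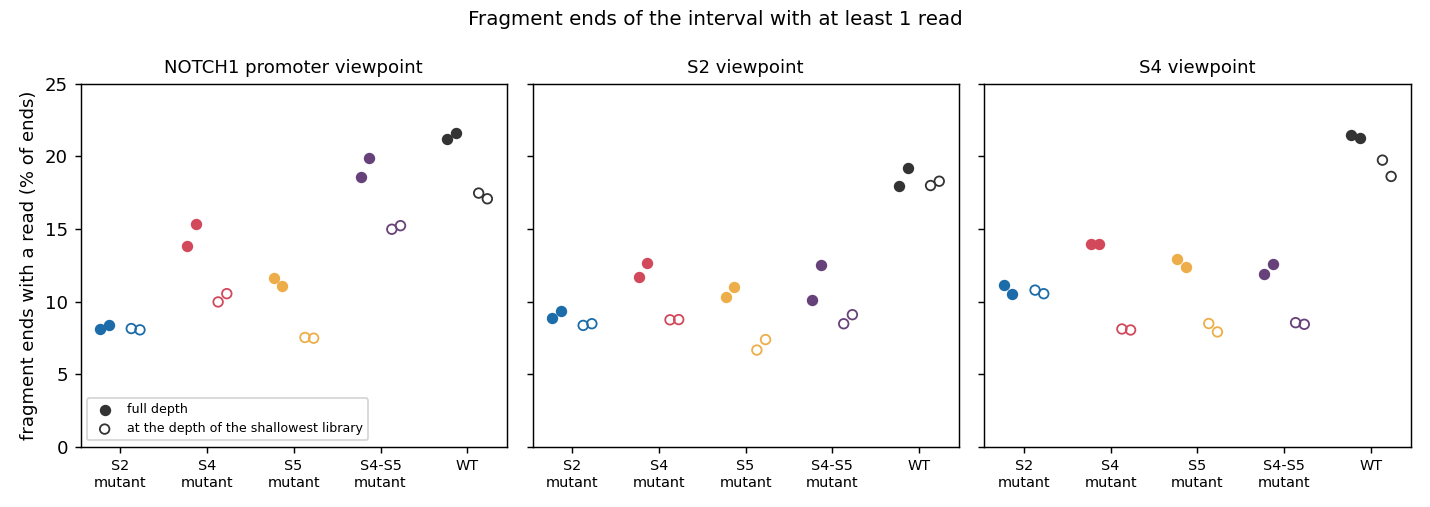
Fragment ends of the interval with at least 1 read, as a percentage of its ends, for each library at full depth (filled) and at the depth of the shallowest library of its viewpoint (open). The WT libraries, at the right of each panel, lie above all mutants at both depths.

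Reads were also spread over fewer ends in mutants. In the S2 mutant the 4 most covered ends held 83.2 ± 1.28% of interval reads at the promoter viewpoint, 99.2 ± 0.07% at S2 and 93.5 ± 0.57% at S4, against 9.57 ± 0.04, 16.97 ± 0.07 and 11.1 ± 0.73% in WT. The other mutants lay between, at 12.04 to 29.5% at the promoter, 20.9 to 42.8% at S2 and 21.0 to 30.5% at S4. To reach 50% of the interval's reads took 1 to 2 ends in S2 mutant libraries, 5 to 27 in those of the other mutants and 17 to 33 in WT. At each viewpoint the S4-S5 mutant was nearest to WT by this count.

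**Figure D4:**
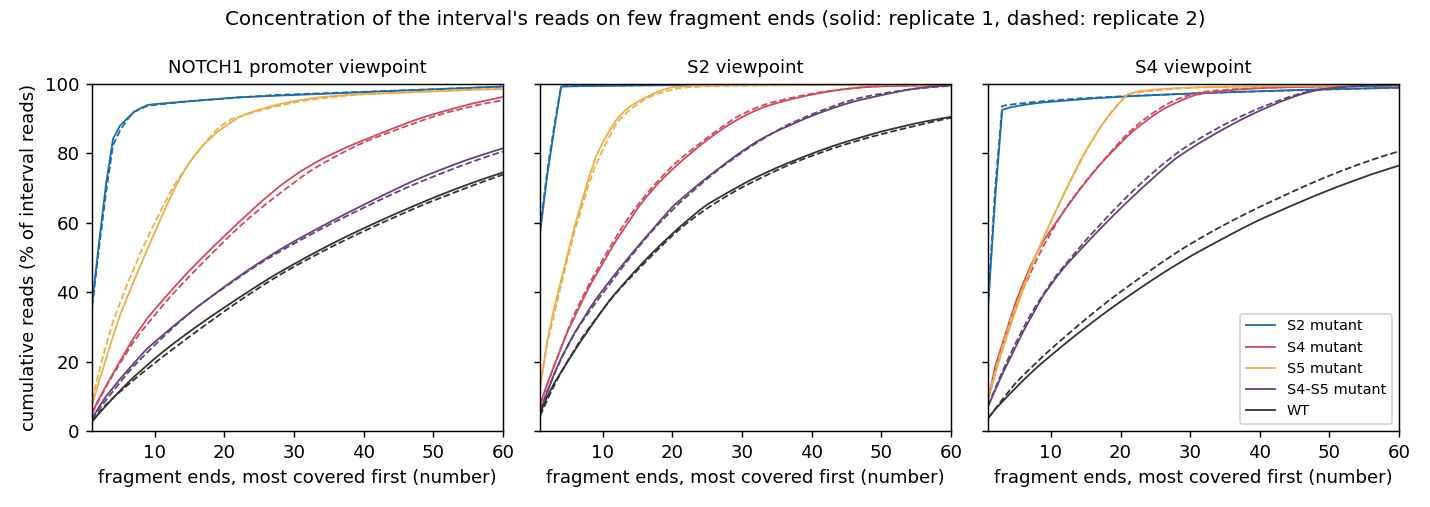
Cumulative share of the interval's reads against the number of fragment ends, most covered first, for both libraries of each genotype. S2 mutant curves rise almost at once, with 99.2% of reads on 4 ends at the S2 viewpoint, and WT curves rise most slowly.

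The end with the highest mean share over genotypes was followed at each viewpoint. At S2 it was the end at 139979048, of a 300-base fragment from 139979044 to 139979344. It had 15334 and 16816 reads in the S2 mutant, 48 and 53 in the S4 mutant, 37 and 121 in S5 mutant cells and 800 and 1044 in the S4-S5 mutant, against 39 and 53 in WT. This end alone held 57.4 and 58.7% of the interval's reads in the S2 mutant libraries. Without it, the interval at the S2 viewpoint was lower in the S2 mutant than in WT, with a log2 fold change of -0.32. The end was picked for its share, highest in that mutant, so removing it had to lower the S2 mutant more than WT. Capping the most covered ends of each library instead left the S2 mutant above WT, at 2.54 ± 0.07 against 1.89 ± 0.01% of reads. Without the top end of each library it lay below, at 1.35 ± 0.05 against 1.64 ± 0.02%. At the promoter the end was at 140138911, of a 211-base fragment. It had 450 and 492 reads in the S2 mutant, 1 and 2 in the S4 mutant, 94 and 72 in S5 mutant cells and 1 and 5 in the S4-S5 mutant, against 142 and 199 in WT. It carried 36.8 and 35.9% of the interval's reads in the S2 mutant, and without it the fold change of that mutant was -1.05 in place of -0.43. This end too was picked for a share that was highest in the S2 mutant, so removing it had to lower that mutant more than WT. At S4 the end was at 139985840, of a 485-base fragment, with 1626 and 1454 reads in the S2 mutant, 4 to 12 in the libraries of the other mutants, and 992 and 1387 in WT. It was the most covered end of the interval in the S2 mutant and in WT alike, and nearly without reads in the other mutants.

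Which ends were covered differed between viewpoints in its overlap with WT. Of the ends covered in both libraries of a mutant, 26.8 to 40.3% were covered in both WT libraries at the promoter, 70.3 to 86.4% at S2 and 71.4 to 83.6% at S4. As shares of the 161, 162 and 191 ends that WT covered in both libraries, these overlaps were 5.59 to 24.8%, 31.5 to 45.7% and 31.9 to 42.4%. Over all ends of chromosome 9 outside the mask, 40.3 to 71.8% of a mutant's ends were shared with WT at the promoter, 74.5 to 86.0% at S2 and 74.1 to 86.9% at S4, and 18.7 to 30.2, 38.8 to 48.8 and 39.3 to 46.5% of the ends of WT. In the flanking windows of the interval's length, 33.8 to 43.6% of a mutant's ends were shared with WT at the promoter, 68.7 to 81.2% at S2 and 68.8 to 87.1% at S4. The low overlap at the promoter was thus seen in the flanks too. The promoter viewpoint also had another set of ends, 64.0% of them non-blind in the interval against 29.7% at S2 and 29.9% at S4. Its libraries had a median of 319248 reads outside the mask, against 1848740 at S2 and 1529970 at S4. Whether the overlap follows from these was not tested. In the interval, both libraries of every genotype covered 3 ends from the promoter, 34 from S2 and 34 from S4. These were 0.890, 16.3 and 14.0% of the ends covered in both libraries of any genotype, where the flanks had 1.45, 19.7 and 12.5% and the chromosome 6.97, 22.9 and 20.1%. Within a group, 95.8 to 99.9% of interval reads lay at ends covered in both libraries.

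The 26 bins of 10 kb that lie whole in the interval were tested with all 10-kb bins of the chromosome in 1 edgeR fit per viewpoint. At the promoter, the S2 mutant had 4 bins higher and 21 lower, where 10.4 and 63.0% of all 1437 bins passed in those directions. The S4 mutant had 7 higher and 15 lower (20.7 and 57.2% of all bins), the S5 mutant 2 and 20 (15.9 and 61.9%) and the S4-S5 mutant 9 and 12 (30.5 and 57.1%). As shares of the 26 bins these are 15.4, 26.9, 7.69 and 34.6% higher and 80.8, 57.7, 76.9 and 46.2% lower. At S2 the S2 mutant had 4 higher and 22 lower (6.28 and 67.9% of 1386 bins), the S4 mutant 5 and 19 (20.8 and 62.8%), the S5 mutant 6 and 18 (12.1 and 66.2%) and the S4-S5 mutant 8 and 14 (24.5 and 62.1%). At S4 the S2 mutant had 3 higher and 23 lower (8.65 and 71.3% of 1411 bins), the S4 mutant 3 and 23 (18.4 and 66.2%), the S5 mutant 6 and 19 (13.7 and 69.2%) and the S4-S5 mutant 6 and 19 (19.6 and 65.7%). Most interval bins were lower in 11 of the 12 comparisons, the exception being the S4-S5 mutant at the promoter with 12 of 26, while most bins of the chromosome were lower in all 12. The median log2 fold change of the 26 bins ran from -5.90 to -0.11 over the 12 comparisons, above that of all bins, -7.28 to -1.48, in each. Bins were kept by their mean reads over all 10 libraries of a viewpoint. Distant bins with few or no mutant reads could thus enter through WT alone and lower the median of all bins. The share of all bins that were lower is open to the same effect, so neither value sets the interval apart. With covered ends in place of reads, none of the 26 bins passed in edgeR in any comparison with WT, and 0 to 3 had an unadjusted p under 0.05. Of all bins in that fit 2.03% passed in the S2 mutant and 0.678% in S5 mutant cells at the promoter, and none in the other 10 comparisons, so the count says little of the interval itself. Against mutants that keep the site in place of WT, 17 of the 26 bins passed in the S4 mutant at the S4 viewpoint, where 42.0% of all bins did.

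Where in the interval reads were kept differed between viewpoints. From S4, the part centromeric of the interval's midpoint held 98.1 ± 0.15% of interval reads in the S2 mutant, 81.2 ± 0.30% in the S4 mutant, 85.0 ± 0.18% in S5 mutant cells and 59.3 ± 0.33% in the S4-S5 mutant, against 62.1 ± 0.26% in WT. The S2 mutant thus had few of its interval reads telomeric of the midpoint. From S4 its 4 most covered ends held 93.5 ± 0.57% of interval reads. The end at 139985840, centromeric of the midpoint, held 36.7 and 38.2%, so this split rests on where a few ends lie. The S4-S5 mutant was near WT in this split but not in covered ends, with 12.2% of ends covered against 21.4% in WT. From S2 the part centromeric of the interval's midpoint held 86.7 ± 0.18, 71.9 ± 0.43, 77.5 ± 0.44 and 66.9 ± 0.14% in those mutants and 55.9 ± 0.19% in WT. In the S2 mutant the end at 139979048, which lies in that part, alone held 57.4 and 58.7% of the interval's reads. From the promoter it held 59.1 ± 0.26, 59.1 ± 0.07, 58.7 ± 2.82 and 53.6 ± 0.22% in the mutants and 52.9 ± 0.67% in WT, a narrower range.

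**Figure D5:**
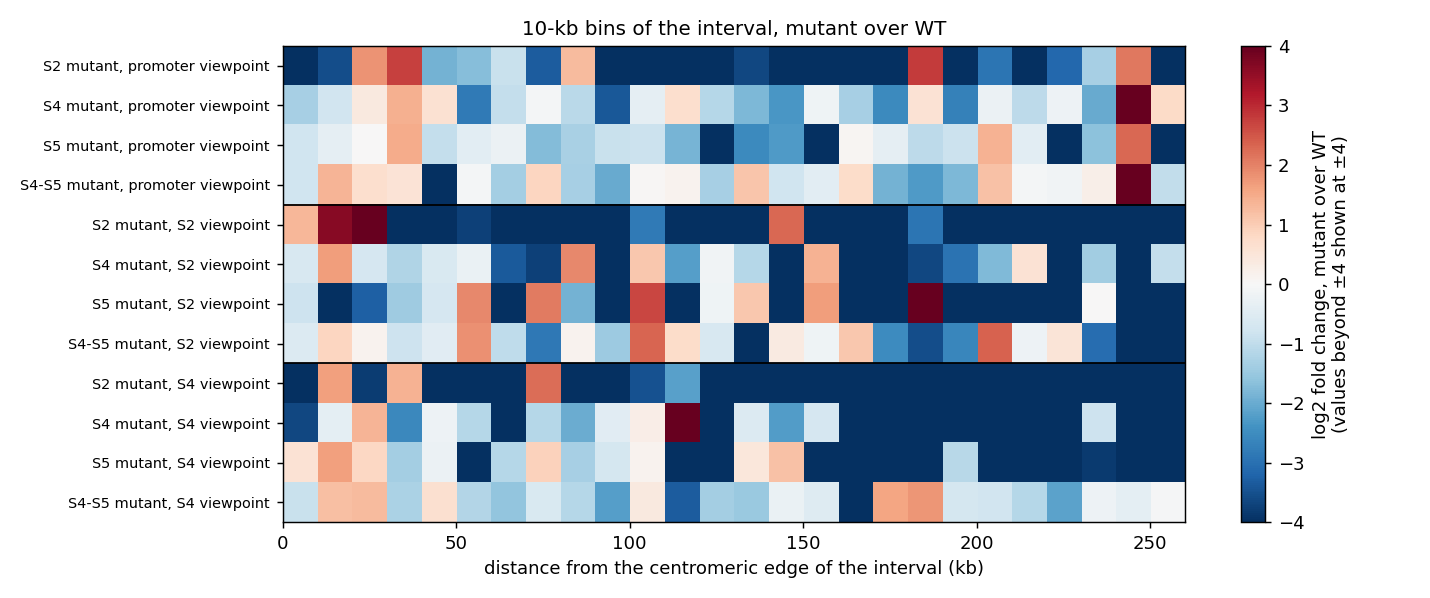
Log2 fold change of each whole 10-kb bin of the interval, mutant over WT, from the edgeR fit of all bins of chromosome 9, by distance from the centromeric edge. Rows are mutants grouped by viewpoint, red is higher and blue lower in the mutant, and values beyond 4 in size are drawn at 4. The S2 mutant rows at the S2 and S4 viewpoints are blue over most of the interval, on both sides of the midpoint, with 22 and 23 of 26 bins lower.

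In WT the most contacted bins were 140140001 to 140150000 from the promoter, with 0.167 ± 0.012% of reads, 139990001 to 140000000 from S2, with 0.161 ± 0.005%, and 140070001 to 140080000 from S4, with 0.263 ± 0.018% (SD, n = 2 each). The bin from 140100001 was among the 3 highest from the promoter, at 0.158 ± 0.002%, and from S4, at 0.162 ± 0.002%. The bin from 139950001, nearest to the viewpoints, was so from S2, at 0.155 ± 0.005%, and from S4, at 0.195 ± 0.001%. Also among the highest were the bin from 140030001 at the promoter, at 0.143 ± 0.002%, and that from 140120001 at S2, at 0.157%. The leading WT bins of a viewpoint thus lay apart from each other along the interval.

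Several of the bins that rose most in a mutant rested on few ends. At the S2 viewpoint the bin from 139970001 had 15342 and 16830 reads in the S2 mutant, nearly all at the end named above, against 790 and 1128 in WT, a log2 fold change of 4.01 (SE 0.08). The bin from 140130001 had 1437 and 1257 reads in S5 mutant cells, all at 1 end in each library, against 25 and 26 in WT, a log2 fold change of 4.55 (SE 0.21). The bin from 140030001 was higher in the S4 mutant by 1.94 (SE 0.13), and the bin from 140150001 in S4-S5 mutant cells by 2.35 (SE 0.17). At the promoter viewpoint the bin from 140190001 had 130 and 140 reads at 2 ends in the S4 mutant and 127 and 221 at 2 ends in the S4-S5 mutant, against 0 and 1 in WT. The S2 and S5 mutants, with 0 to 2 reads a library there, did not share that rise. Relative to WT the ratio of shares was 353.8 in the S4 mutant (95% counting interval 63.0 to 14030) and 232.9 in the S4-S5 mutant (41.5 to 9226). The bin from 140130001 rose by 2.79 (SE 0.09) in the S2 mutant and that from 139980001 by 1.48 (SE 0.12) in S5 mutant cells. At S4 the bin from 140060001 had 2093 and 1876 reads at 3 ends in the S4 mutant, against 48 and 71 in WT, a log2 fold change of 4.17 (SE 0.17). The largest rises in the other mutants there were 2.23 (SE 0.09) for the bin from 140020001 in the S2 mutant, 1.63 (SE 0.08) for that from 139960001 in S5 mutant cells and 1.76 (SE 0.14) for the bin from 140130001 in S4-S5 mutant cells. Passing the threshold was a condition for naming these bins, so it adds nothing to their rise.

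The bins that fell most were close to empty in the mutant. From S4 the bin from 140110001 had 2 and 1 reads in the S2 mutant, 3 and 6 in the S4 mutant and 1 and 0 in the S4-S5 mutant, against 723 and 1192 in WT. It was the bin that fell most in all 3, and held 4 and 9 reads in S5 mutant cells, whose largest fall was the bin from 140160001, with 8 reads in both libraries together. At S2 the bin from 140140001 had 3 and 0 reads in the S2 mutant, against 920 and 1103 in WT. The bin from 140190001 fell most in the S4 mutant, with 1 read over both libraries, and in S5 mutant cells, with 4, against 1123 in WT. The bin from 140200001 fell most in the S4-S5 mutant, with 4 reads against 826 in WT. From the promoter that same bin had no read in the S2 mutant and 2 in S5 mutant cells, against 422 in WT. Taking 3 reads over the pair of libraries as the floor, its share was at least 26.5-fold lower in the S2 mutant, and the 95% counting interval of the ratio gives a bound of 21.4-fold. The bin from 139990001 fell most in the S4-S5 mutant, with 1 read against 618 in WT, and that from 140040001 in the S4 mutant, with a log2 fold change of -3.39 (SE 0.16) and 68 reads against 936. The bins of largest fall were likewise named only among those that passed the threshold. Such counting intervals and floors cover counting error only, since amplified reads are not independent molecules.

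A pair of ratios within a library does not depend on its total. The mirror interval has the same length and lies at the same distances on the centromeric side of the viewpoint, and the flanking windows are those of the same length on either side of the interval. From S4 the log2 ratio of interval to mirror was -2.57 ± 0.04 in the S2 mutant, -1.99 ± 0.01 in the S4 mutant, -0.41 ± 0.003 in S5 mutant cells and -0.27 ± 0.02 in the S4-S5 mutant, against -0.40 ± 0.04 in WT (SD, n = 2 each; exact permutation, adjusted p = 0.004233). The S2 and S4 mutants stood far from WT, while the S5 mutant lay at the WT value when all ends were counted. With non-blind ends alone the S2 mutant was at -2.59 ± 0.05, the S4 mutant at -2.10 ± 0.02 and the S5 mutant at -0.33 ± 0.02. The S4-S5 mutant was then at -0.07 ± 0.02, against -0.20 ± 0.03 in WT. The mirror interval itself held 4.87 ± 0.10% of reads in the S2 mutant and 3.67 ± 0.02% in the S4 mutant, against 3.18 ± 0.05% in WT, so both sides of the ratio moved. In S5 mutant cells both sides were lower than in WT. Their mirror held 1.89 ± 0.05% and their interval 1.42 ± 0.04%, where the WT interval held 2.41 ± 0.03%.

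From S2 the ratio to the mirror was 0.39 ± 0.03, -0.46 ± 0.007, 0.55 ± 0.04 and -0.13 ± 0.04 in S2 mutant, S4 mutant, S5 mutant and S4-S5 mutant cells and -0.36 ± 0.01 in WT (exact permutation, adjusted p = 0.002116). The S5 mutant was higher there with a mirror share of 0.874 ± 0.035%, against 2.21 ± 0.01% in WT. Capping the most covered ends of each library put the S2 mutant at -0.16 ± 0.03. With non-blind ends alone the mutants were at 1.24 ± 0.006, -0.59 ± 0.002, 0.11 ± 0.06 and 0.18 ± 0.01 and WT at -0.23 ± 0.01, so the sign of the S4-S5 mutant turned. From the promoter the ratio was -0.35 ± 0.04, -0.56 ± 0.04, -0.39 ± 0.04 and -0.02 ± 0.04 in those mutants and -0.35 ± 0.004 in WT (exact permutation, adjusted p = 0.008889). The S4 mutant was lowest and the S4-S5 mutant highest there, but the order depended on the ends used. With non-blind ends alone the S2 mutant was highest, at 0.79 ± 0.002, and the S5 mutant lowest, at -0.64 ± 0.008, with the S4 mutant at -0.42 ± 0.03 and the S4-S5 mutant at -0.02 ± 0.01, against -0.35 ± 0.006 in WT.

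Against its flanks the interval was at -1.35 ± 0.09, -1.42 ± 0.08, -1.65 ± 0.07 and -1.19 ± 0.06 from the promoter in S2 mutant, S4 mutant, S5 mutant and S4-S5 mutant cells and -1.34 ± 0.02 in WT (exact permutation, adjusted p = 0.0127). Without S4-S5 mutant replicate 2 the adjusted p of that exact test was 0.0550, above the threshold of 0.05, so the call rests on that library. With non-blind ends alone the S2 mutant was at -0.95 ± 0.12, against -1.36 ± 0.03 in WT. From S2 the log2 ratio was 0.47 ± 0.05, -1.25 ± 0.02, -1.77 ± 0.01 and -1.505 ± 0.001 in those mutants and -1.64 ± 0.01 in WT (exact permutation, adjusted p = 0.002116). The S2 mutant, with the single end described above, was alone in holding more reads in the interval than in both flanks, and with the most covered ends capped its ratio was -0.06 ± 0.04. From S4 it was -1.67 ± 0.08, -1.28 ± 0.01, -1.13 ± 0.02 and -0.64 ± 0.004 in the mutants and -0.99 ± 0.01 in WT (exact permutation, adjusted p = 0.002116). At that viewpoint the S4-S5 mutant kept more of its reads in the interval relative to the flanks than WT did, and the S2, S4 and S5 mutants less. Each such pair of groups rests on 2 libraries against 2, which alone cannot reach an exact p under 0.05, so the tests are of all 5 genotypes together.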

How the data were processed

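Whole read counts per fragment end of chromosome 9, which the authors deposited without normalization per the file headers, were used from all 30 libraries; the build is hg19, and deepTools is named with no role or version, per the submitters' processing notes. Aligner, read filters and counting tool: not given in the sources used here. Per the labels' protocols, fixation took 10 min in 2% formaldehyde, DpnII and then NlaIII or CviQI cut the DNA, each cut being followed by ligation, and a first PCR of 16 cycles used 200 ng. Reads were single, of 150 bp, without molecular identifiers, so a few strongly amplified ligation products can carry a share.

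Ends were summed over windows of the interval's length, and over 10-kb bins, laid along chromosome 9 from the interval's start. The library size was the chromosome 9 reads more than 5 kb from the viewpoint. Features averaging fewer than 10 reads a library, or 1 covered end where covered ends were fitted, were dropped. edgeR 4.0.16 (R 4.3.3) fitted all 10 libraries of a viewpoint by its quasi-likelihood F test, with all features of chromosome 9 in the Benjamini-Hochberg adjustment and 0.05 as the threshold. Single values per library were tested by exact permutation, adjusted over 12 values (share, covered ends, mirror and flank ratios at 3 viewpoints). DESeq2 1.42.0 was an alternative, with TMM factors, other scalings, filters, masks, bin sizes, non-blind ends, capped reads, a replicate block, and each replicate left out. Fits and permutations were tested on simulated data. Tables were handled with pandas 2.3.3 and numpy 2.4.6, and figures drawn with matplotlib 3.10.9.

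Bins named are the 3 of highest WT share per viewpoint and, per mutant and viewpoint, the most changed in each direction among those that passed and whose 2 mutant libraries do not overlap the WT ones; the end named is that of highest mean share over genotypes. The interval, genes and lists were chosen with earlier results of these data known. Promoter sequences and gene order are RefSeq's, on GRCh38.p14, whose coordinates were not mixed with hg19. Sequences of the fragment ends were not used here.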

Additional observations from a re-analysis of the deposited data

Results flagged for a closer look

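The S2 mutant's interval share moved in opposite directions at different viewpoints. At the S2 viewpoint both of its libraries lay above both WT libraries, a log2 fold change of 0.90, and at the promoter and S4 viewpoints both lay below, at -0.43 and -1.55. That difference between viewpoints was not tested. Without the end at 139979048, picked for its high share in these data, the value at S2 was -0.32. With the most covered ends capped, the S2 mutant's share there stayed above WT, at 2.54 ± 0.07 against 1.89 ± 0.01%. A capped end keeps part of its reads, however. Without the top end of each library the S2 mutant's share lay below WT, at 1.35 ± 0.05 against 1.64 ± 0.02%. No group held over 2 libraries, so none was searched for a library far from the others.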

How the results depend on the processing

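The direction of most comparisons with WT changed with the scaling. Log2 fold changes of the interval are given in the order S2, S4, S5 and S4-S5 mutant. With TMM factors they were 1.10, 1.29, 0.89 and 1.12 at the promoter, 2.46, 1.26, 1.61 and 1.24 at S2, and -0.28, 0.45, 1.303 and 1.15 at S4. With DESeq2 they were 2.14, 0.62, 0.64 and 0.75 at the promoter, 5.49, 1.97, 2.75 and 1.66 at S2, and 3.14, 1.70, 2.46 and 1.73 at S4. Scaled to reads beyond 1 Mb, an alternative chosen after seeing the data, they were 0.87, 0.62, 0.46 and 0.78 at the promoter, 2.13, 0.94, 1.12 and 0.99 at S2, and 0.056, 0.15, 0.87 and 0.98 at S4. Scaled to all chromosome 9 reads they moved the other way, to -4.40, -2.66, -3.39 and -1.24 at the promoter, 0.12, -0.87, -0.94 and -0.50 at S2, and -4.42, -2.14, -2.12 and -1.17 at S4. By construction scaling to reads beyond 1 Mb gives distant chromatin, where WT has more reads, an equal weight in each library. With covered ends they were -0.040, 0.11, 0.042 and 0.26, then -0.18, -0.098, -0.10 and -0.043, then -0.16, -0.088, -0.062 and -0.086, none past the threshold, and 0 of 26 bins passed in each comparison, where 0 to 2.03% of all bins did.

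With mutants that keep the site in place of WT, the S2, S4 and S4-S5 mutants were at 0.15, 0.073 and 0.13 at the promoter, and at S4 the S5 mutant was at 0.71 and the S4-S5 mutant at 1.05, and 17 of 26 bins passed in the S4 mutant, where 42.0% of all bins did. With non-blind ends the S2 mutant at the promoter was at -0.053 and no longer passed, and without the named end, also chosen after seeing the data, the S2 mutant at S2 was at -0.32. The S4-S5 over the S4 mutant at the promoter was -0.17 with TMM factors, 0.13 with DESeq2 and 0.15 with covered ends, and over the S5 mutant 0.11 with DESeq2 and 0.22 with covered ends. At S2 the S4-S5 over the S4 mutant was -0.022, -0.31, 0.0548 and 0.0548 with TMM factors, DESeq2, reads beyond 1 Mb and covered ends. Over the S5 mutant it was -0.38, -1.09 and -0.13 with the first 3 of these, 0.43 scaled to all chromosome 9 reads, 0.075 with a mask of 20 kb and 0.12 with non-blind ends. At S4 the S4-S5 over the S4 mutant was 0.029 with DESeq2 and 0.0020 with covered ends, and over the S5 mutant -0.16 with TMM factors, -0.73 with DESeq2 and -0.024 with covered ends. The cause of these shifts was not tested.

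Among named bins, scaling to all chromosome 9 reads gave -1.18 for the bin from 140130001 (promoter, S2 mutant), -1.04 for 139980001 (promoter, S5 mutant) and -0.64 for 140020001 (S4, S2 mutant). The mutant reference gave 0.26 for 140040001 (promoter, S4 mutant), -0.60 for 139980001 (promoter, S5 mutant), 0.98 for 140190001 (S2, S5 mutant) and 1.19 for 140110001 (S4, S2 mutant). Non-blind ends gave -0.47 for 140030001 (S2, S4 mutant), -4.44 for 140020001 (S4, S2 mutant) and -0.65 for 140060001 (S4, S4 mutant). Covered ends gave 0.074 for 140040001 (promoter, S4 mutant), -0.31 for 139970001 (S2, S2 mutant), -0.40 for 140030001 (S2, S4 mutant) and -0.57 for 140130001 (S2, S5 mutant).

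Leaving out 1 library moved the interval's log2 fold change by little: it ran from -0.47 to -0.40, -0.64 to -0.52, -0.89 to -0.85 and -0.33 to -0.28 at the promoter, and no call changed. The exact adjusted p of the flank ratio at the promoter ran from 0.0104 to 0.0550, the last without S4-S5 mutant replicate 2, which loses the call, and that of covered ends at S2 was 0.171 among mutants only. Replicate numbers did not pair libraries: same-numbered deviations correlated by -0.06 to 0.05, 0 of 10 pairs per viewpoint being over 0.1. With the replicate block the S2 mutant at S2 was at 0.90 and the S4 mutant at the promoter at -0.58, and all calls of windows and exact tests kept their side of the threshold. At 1223 to 1369 interval reads, the S2 mutant at the promoter is the least deeply sampled group, and 8.26% of its ends there were covered.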
